A study of Mus musculus with 27 samples.

Results

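The genes of cholesterol synthesis described here are 8 genes taken by name, Hmgcs1, Idi1, Fdps, Fdft1, Sqle, Lss, Cyp51 and Insig1, of 23295 genes in the RNA-seq table of parental cells and 24247 in that of shRNA cells. The cells are NMuMG, a mouse mammary gland epithelial line that undergoes the epithelial-to-mesenchymal transition (EMT) when TGF-β, a growth factor, is added. Parental cells, cells infected with a control shRNA (C) and cells infected with a lamin B1 shRNA (KD) were left untreated or were treated with TGF-β (1 to 5 ng/ml in the sample labels) for 8 or 24 h, and 2 biological replicates of each of these groups were sequenced, 18 libraries in all. All groups were grown in serum with insulin, and C and KD cells, unlike parental cells, were infected with a virus and selected with puromycin, so C cells are the controls of KD cells. Lamin B1 ChIP-seq and ATAC-seq, which marks accessible chromatin, gave 1 peak list each per time point from cells with no shRNA in their labels, each ChIP library being a mix of parallel precipitations. Values are FPKM, read counts scaled to the length of the gene and to the reads of the library, so levels of different genes can be set side by side.

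Cholesterol is built in the endoplasmic reticulum and cytosol from acetyl-CoA, first through mevalonate to isoprenoid units, then through squalene, and finally through a series of ring-shaped sterols. When sterols in the membrane are scarce, the protein Scap carries the transcription factor SREBP2 (the product of Srebf2) to the Golgi apparatus, where it is cut and released to switch on nearly every gene of the route. Insig1 holds Scap back when sterols are plentiful and is itself a target of SREBP2, so its transcript is often read beside those of the enzymes. Mammary epithelial cells are lipid-producing cells in which this route is normally active.

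In the order of the pathway, Hmgcs1 joins acetyl groups ahead of mevalonate, Idi1 converts the first isoprenoid unit into its isomer, and Fdps couples units into farnesyl diphosphate. Fdft1 makes squalene, Sqle oxidises it, Lss closes the first sterol ring and Cyp51 takes a methyl group off lanosterol. Of these genes, 7 were found by symbol in the GENCODE M1 annotation of mouse build mm9. Idi1 lies at chr13:8884852-8891641 on the plus strand and Fdps at chr3:88897514-88905881 on the minus strand. Fdft1 is at chr14:63763990-63796630 on the minus strand, Sqle at chr15:59146632-59162747 on the plus strand and Lss at chr10:75994333-76019883 on the plus strand. Cyp51 and Insig1 share a chromosome, at chr5:4081145-4104746 on the minus strand and chr5:28397952-28405201 on the plus strand.

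SREBP2 works together with the factor NF-Y, which reads the letters CCAAT, and the RefSeq promoter table (GRCm38.p6; 250 bases before the start and 50 after) matched 5 of the 8 genes, Hmgcs1, Idi1, Lss, Cyp51 and Insig1. CCAAT was found on either strand in 5 of 5, against 37.4% of 32851 promoters in the table. The letters GGGCGG, a core read by Sp1, were also found in 5 of 5, against 35.7% of all promoters. A sterol element written TCACNCCAC stood letter for letter in Hmgcs1 alone, against 1.24% of promoters, and with at most 1 mismatch in Cyp51, Hmgcs1 and Insig1, against 24.2%. Both strands were searched, and overlaps between these motifs were not removed. The matches are described as letters and were not tested as sites.

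The 250 bases before the start are shown for Insig1 and Idi1, whose RefSeq and GENCODE starts coincide and whose sequence occurs once on its chromosome in mm9, because their RNA moved widely in the comparisons given further on. Capitals mark CCAAT, or ATTGG where it lies on the other strand. Insig1 is read on the plus strand from chr5:28397702-28397951 (mm9), and Idi1 on the plus strand from chr13:8884602-8884851 (mm9).
Insig1: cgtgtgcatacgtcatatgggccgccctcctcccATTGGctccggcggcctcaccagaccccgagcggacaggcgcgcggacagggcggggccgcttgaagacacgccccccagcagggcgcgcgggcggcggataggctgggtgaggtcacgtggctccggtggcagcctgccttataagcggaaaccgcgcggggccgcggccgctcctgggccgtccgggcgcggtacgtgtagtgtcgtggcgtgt
Idi1: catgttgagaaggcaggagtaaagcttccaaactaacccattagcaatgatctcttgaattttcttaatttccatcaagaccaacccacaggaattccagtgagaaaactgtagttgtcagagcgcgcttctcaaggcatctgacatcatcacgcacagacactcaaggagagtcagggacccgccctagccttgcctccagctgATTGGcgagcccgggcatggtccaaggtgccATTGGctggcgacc
Insig1 carries 1 such motif, far from the start, and Idi1 carries 2, both close to it.

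The labels and the libraries were checked first. A gene is called higher or lower where its Benjamini-Hochberg adjusted p is under 0.05 in limma on log2(FPKM + 1), over all genes of the table. Lmnb1, the gene targeted by the shRNA, was at 29.2 and 36.5 FPKM in untreated C cells and 9.01 and 9.27 in untreated KD cells, and every KD library lay below every C library of its time point. The epithelial markers Epcam, Cdh1, Krt8, Krt18, Cldn4 and Tjp1 summed to between 3920 and 6987 FPKM over the libraries, while the sum of 5 adipocyte markers stayed at or below 7.40, 5 immune markers at or below 2.83, 4 endothelial markers at or below 1.66 and 5 fibroblast markers at or below 12.4. Pecam1, Kdr and the other endothelial markers were under 1 FPKM in every library. The TGF-β response genes Fn1, Smad7 and Ctgf were called higher at 8 h and at 24 h in parental, C and KD cells. The tables give no read counts, so the depth behind a value is unknown. The top 10 genes held 11.4% to 40.4% of the summed FPKM of a library, led by a small nucleolar RNA gene (Snord47 or Snord58b), and the second KD library at 24 h stood apart: Snord47 alone made up 26.2% of its sum against 9.38% in its replicate, and the correlation between the 2 libraries, 0.960 over tested genes on the log2 scale, was the lowest of any group.

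Hmgcs1 was listed at 0 in all 18 libraries, as were 5323 genes of the parental table and 5077 of the shRNA table. A value of 0 throughout can be a failed estimate, and nothing further is given for it. The other 7 genes passed the filter on low values (at least 1 FPKM in at least 2 libraries) in both tables, where 11309 and 11450 genes were tested. Fdps was the highest of them in every library, between 98.7 and 249.1 FPKM, and Lss the lowest, between 5.90 and 26.6. Between these, untreated parental cells held Idi1 at 81.3 and 81.5, Sqle at 79.0 and 79.9, Cyp51 at 44.7 and 45.2, Fdft1 at 30.4 and 29.9 and Insig1 at 30.4 and 29.7. The order was thus Fdps, Idi1, Sqle, Cyp51, then Fdft1 and Insig1, whose libraries overlapped, and Lss. RNA came from whole cultures, so fewer cells that make a transcript and less of it per cell cannot be told apart.

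The parental cells show the route under TGF-β with no shRNA. The genes rose by 8 h and fell below their untreated level by 24 h: 6 of 7 were called higher at 8 h, where 22.4% of tested genes were called higher and 32.1% lower, and 7 of 7 were called lower at 24 h, where 33.4% were called higher and 37.1% lower. Between 8 and 24 h, 7 of 7 were called lower, against 24.0% of tested genes called lower and 27.7% higher. These comparisons share libraries, in C and KD cells as well.

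**Figure D1:**
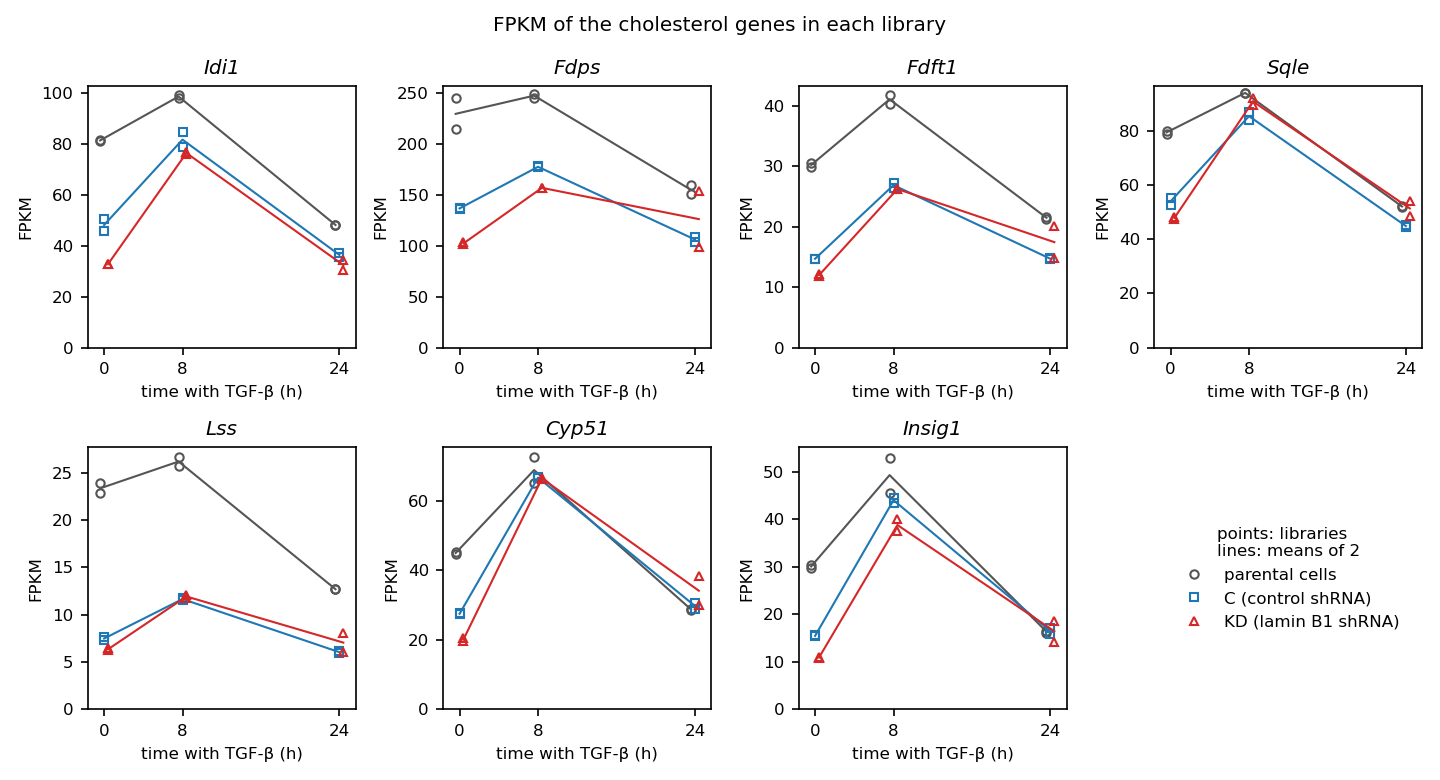
FPKM (vertical axes, each from 0) of 7 cholesterol genes against hours with TGF-β (horizontal axes, points shifted slightly sideways), with 1 point per library and lines through the means of 2 libraries, in parental (grey), C (blue) and KD cells (red). Every gene peaks at 8 h in every cell type, untreated C and KD cells start below parental cells, and the 2 KD libraries at 24 h lie apart for Fdps, at 98.7 and 153 FPKM.

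Insig1, which holds Scap back when sterols are plentiful, rose most at 8 h. Its parental libraries read 30.4 and 29.7 FPKM untreated, 53.0 and 45.6 at 8 h and 16.5 and 16.1 at 24 h. No library of one time point reached those of another, and the log2 differences from untreated cells were 0.69 (SE 0.07) at 8 h and -0.84 (SE 0.07) at 24 h, with limma adjusted p of 0.000256 and 3.82e-05. Cyp51 had the next largest rise at 8 h, from 44.7 and 45.2 FPKM to 72.8 and 65.0, and read 28.6 and 28.9 at 24 h. Its log2 differences were 0.60 (SE 0.06) and -0.63 (SE 0.06).

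The squalene steps behaved alike with smaller rises. Fdft1 went from 30.4 and 29.9 FPKM to 41.7 and 40.3 at 8 h and 21.3 and 21.6 at 24 h. Sqle, the enzyme blocked by allylamine antifungal drugs in fungi, went from 79.0 and 79.9 to 93.9 and 94.0 and then to 51.8 and 52.3. Lss read 23.9 and 22.8, then 25.7 and 26.6, then 12.7 and 12.7. Libraries of different times did not overlap in any of the 7 genes, these 3 included, and the share over all genes was not counted. The 24 h mean was 0.711 of the untreated mean for Fdft1, 0.656 for Sqle and 0.543 for Lss. The 8 h rise of Lss, the smallest of the 3, was not called when the second untreated or the second 8 h library was left out, at log2 differences of 0.13 and 0.14.

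Of the isoprenoid enzymes, Idi1 rose from 81.3 and 81.5 FPKM to 99.3 and 98.0 at 8 h and fell to 48.3 and 48.0 at 24 h. Fdps was the exception at 8 h. Its libraries read 244.5 and 214.0 untreated and 249.1 and 245.2 at 8 h, a log2 difference of 0.11 (95% interval -0.04 to 0.27) that was not called, before a fall to 150.2 and 159.2 at 24 h that was. The first untreated library decided this, since without it the 8 h difference was 0.21 and called. The median log2 difference of the 7 genes was 0.27 at 8 h and -0.63 at 24 h, beside medians of -0.05 and -0.02 over all tested genes.

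C cells, infected with the control shRNA, started lower. Untreated C cells held 0.320 (Lss) to 0.679 (Sqle) of the parental mean for each of the 7 genes. The 2 tables were made separately, so this difference was not tested, and infection and table cannot be told apart. At 8 h, 6 of 7 genes were called higher in C cells, where 19.4% of tested genes were called higher and 44.9% lower. The median log2 difference of all tested genes was -0.14, and with quantile normalization, which brings that median to -0.02, 3082 genes were called higher and 3624 lower in place of 2223 and 5137, and 7 of 7 members were called higher. Insig1 rose from 15.3 and 15.5 FPKM to 43.5 and 44.6, a ratio of means of 2.85. Cyp51 rose from 27.6 and 27.3 to 66.5 and 66.9, a ratio of 2.43. Fdft1 rose from 14.7 and 14.6 to 27.2 and 26.4, Sqle from 52.7 and 55.2 to 86.9 and 83.9, Lss from 7.60 and 7.33 to 11.7 and 11.5, and Idi1 from 45.6 and 50.7 to 78.8 and 84.6. Fdps was again the gene not called, at 136.1 and 136.9 FPKM untreated and 177.7 and 177.0 at 8 h, with a log2 difference of 0.38 (95% interval 0.02 to 0.73) that was called without either KD library of 24 h.

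By 24 h the C cells had returned to about their untreated level for some of the genes and below it for others. Of 7 genes, 3 were called lower (Idi1, Sqle and Lss) and none higher, where 25.5% of tested genes were called higher and 45.1% lower (2924 and 5169 genes; 3900 and 3901 with quantile normalization). Idi1 read 35.5 and 37.3 FPKM, Sqle 44.4 and 45.2 and Lss 5.90 and 6.14, each below both untreated C libraries. Fdps, at 103.6 and 108.4, also lay below both, with a log2 difference of -0.36 (95% interval -0.71 to -0.01) that was not called, although it was with only the groups compared in the fit. Insig1, at 15.8 and 17.1, and Cyp51, at 28.9 and 30.5, lay slightly above their untreated libraries, with log2 differences of 0.09 and 0.11 that were not called. Fdft1 stood at 14.7 and 14.6, the same as untreated, and its difference of -0.00025 became 0.12 with quantile normalization, under which Lss was no longer called and Cyp51 was called higher at 0.25. Lss also lost its call without the filter and without any one of the untreated or 24 h C libraries, and without either KD library of 24 h 4 genes were called lower, Fdps among them, and Cyp51 higher.

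KD cells were compared with C cells at each time to ask how these genes stand when lamin B1 is lower. In untreated cells 4 of the 7 genes were called lower in KD cells (Idi1, Insig1, Cyp51 and Sqle), where 9.09% of tested genes were called lower and 10.6% higher. The KD mean was 0.681 of the C mean for Idi1, 0.704 for Insig1, 0.731 for Cyp51, 0.748 for Fdps, 0.815 for Fdft1, 0.847 for Lss and 0.888 for Sqle. The median log2 difference was -0.41 for the 7 genes and -0.01 for all genes tested.

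Idi1 stood at 45.6 and 50.7 FPKM in C and 32.7 and 32.9 in KD cells, a log2 difference of -0.54 (SE 0.07, limma adjusted p = 0.00141). Insig1 stood at 15.3 and 15.5 in C and 10.9 and 10.8 in KD cells, a difference of -0.47 (SE 0.10, limma adjusted p = 0.0149). Cyp51 stood at 27.6 and 27.3 in C and 19.7 and 20.4 in KD cells, a difference of -0.43 (SE 0.09, limma adjusted p = 0.0134). Both KD libraries lay below both C libraries in these 3 genes, as in all 7, and the share over all genes was not counted.

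Sqle was nearer the threshold, at 52.7 and 55.2 FPKM in C and 48.2 and 47.6 in KD cells, a difference of -0.17 with a limma adjusted p of 0.0490. It was not called with a pseudocount of 0.1, without the filter, with quantile normalization, with only the groups compared in the fit or with the replicate block. Fdps, at 136.1 and 136.9 in C and 101.2 and 103.1 in KD cells, had a difference of -0.41 (95% interval -0.77 to -0.06, limma adjusted p = 0.0946), Fdft1 one of -0.27 (95% interval -0.52 to -0.03) and Lss one of -0.21 (95% interval -0.43 to 0.01). These 3 were not called in a fit whose spread is shared by all 12 libraries, the KD libraries at 24 h among them. With each library left out in turn, the difference stayed below 0 for all 7 genes. It ran from -0.61 to -0.47 for Idi1 and from -0.20 to -0.14 for Sqle. Which of the 7 genes were called depended on the library left out, as did the number called over all tested genes.

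**Figure D2:**
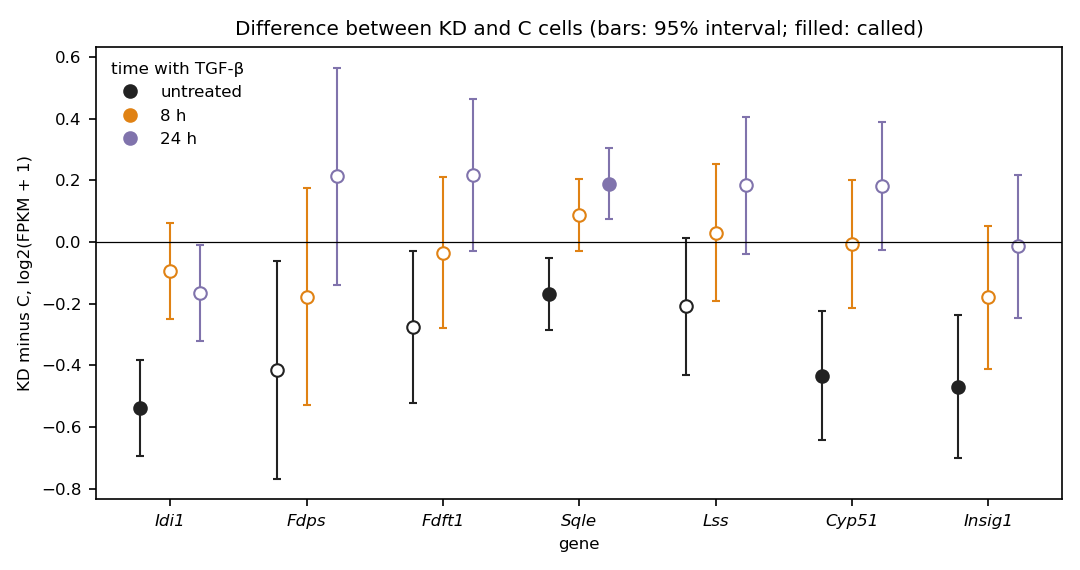
Difference between KD and C cells in log2(FPKM + 1) (vertical axis) for 7 cholesterol genes (horizontal axis), in untreated cells (black) and after 8 h (orange) or 24 h (violet) of TGF-β, with 95% intervals from limma and filled points for called differences. All 7 untreated differences lie below 0, from -0.54 for Idi1 to -0.17 for Sqle, and the 8 h and 24 h intervals reach or cross 0 except for Sqle and Idi1 at 24 h.

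After 8 h of TGF-β the differences were smaller, and the KD mean lay between 0.881 (Insig1) and 1.06 (Sqle) of the C mean. None of the 7 genes was called by limma, and 0 had an unadjusted p under 0.05, where 19.3% of tested genes were called higher and 16.5% lower. Cyp51 read 66.5 and 66.9 FPKM in C and 66.6 and 66.3 in KD cells, with a log2 difference of -0.01 (95% interval -0.21 to 0.20). Idi1 read 78.8 and 84.6 against 76.1 and 76.8, a difference of -0.09 (95% interval -0.25 to 0.06). Fdft1 read 27.2 and 26.4 against 26.1 and 26.3, and Lss 11.7 and 11.5 against 12.1 and 11.7. Fdps, at 177.7 and 177.0 against 156.6 and 156.8, and Insig1, at 43.5 and 44.6 against 40.1 and 37.4, had differences of -0.18 each, with intervals of -0.53 to 0.18 and -0.41 to 0.05. Those 2 genes were called lower with only the 8 h groups in the fit, and without either KD library of 24 h.

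At 24 h only Sqle was called, higher in KD cells, where 16.8% of tested genes were called higher and 11.5% lower. It read 44.4 and 45.2 FPKM in C and 48.7 and 54.0 in KD cells, a log2 difference of 0.19 (SE 0.05, limma adjusted p = 0.0247). For Fdps, Fdft1, Lss and Cyp51 the first KD library lay at or near the C level and the second well above it: Fdps read 103.6 and 108.4 in C against 98.7 and 153.3 in KD cells, Fdft1 14.7 and 14.6 against 14.7 and 20.1, Lss 5.90 and 6.14 against 6.04 and 8.03, and Cyp51 28.9 and 30.5 against 29.9 and 38.3. That second library is the one in which Snord47 holds 26.2% of the summed FPKM, and whether this bears on these values was not tested. Without it Sqle was no longer called, at 0.12, Fdps turned from 0.21 to -0.10, and Insig1 was called lower, at -0.20. Without the first KD library instead, Idi1 stood at -0.25 and the other genes ran from 0.17 (Insig1) to 0.53 (Fdps). Leaving out either C library of 24 h also ended the call of Sqle, so each call at 24 h rests on single libraries.

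Proliferation genes are given beside these results. Of 10 such genes (Mki67, Top2a, Ccnb1, Cdk1, Mcm2, Mcm3, Pcna, Ccna2, Aurka and Bub1), 2 were called lower in untreated KD cells, 8 at 8 h and 10 at 24 h, and none higher. Their summed level was 886 and 1063 FPKM in untreated C cells, 866 and 870 in untreated KD cells, 645 and 650 against 445 and 457 at 8 h, and 286 and 281 against 181 and 208 at 24 h. Of all tested genes, 9.09% were called lower in untreated KD cells, 16.5% at 8 h and 11.5% at 24 h. With TGF-β in parental cells, 9 of the 10 were called lower at 8 h and 10 at 24 h, where 32.1% and 37.1% of tested genes were. The part of cell growth in the cholesterol genes was not tested.

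KD cells started lower than C cells and were near the C level by 8 h. In KD cells 7 of 7 genes were called higher at 8 h, where 23.0% of tested genes were called higher and 44.8% lower (2629 and 5132; 3432 and 4036 with quantile normalization), and ratios of means ran from 1.53 for Fdps to 3.57 for Insig1, beside 1.30 and 2.85 in C cells. Insig1 rose from 10.9 and 10.8 FPKM to 40.1 and 37.4, Cyp51 from 19.7 and 20.4 to 66.6 and 66.3, and Idi1 from 32.7 and 32.9 to 76.1 and 76.8. Fdft1 rose from 12.1 and 11.8 to 26.1 and 26.3, Sqle from 48.2 and 47.6 to 89.6 and 92.0, and Lss from 6.21 and 6.44 to 12.1 and 11.7. Fdps, the gene not called in C cells, rose from 101.2 and 103.1 to 156.6 and 156.8 with a log2 difference of 0.61 (SE 0.15).

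The difference between the KD and C responses was tested itself, in a contrast that uses the same 0 h libraries as the untreated comparison and is thus no separate evidence for it. At 8 h the KD response exceeded the C response for all 7 genes, by 0.24 (Fdps) to 0.45 (Idi1) on the log2 scale. Only Idi1 was called, with a limma adjusted p of 0.0445, where 2.45% of tested genes were called higher and 1.61% lower. That call was lost without the filter, with quantile normalization or the replicate block, and in 8 of the 12 fits leaving out 1 library. In those 12 fits all 7 differences stayed above 0, with Idi1 between 0.37 and 0.52. With only the groups compared in the fit 6 of 7 genes were called, where 443 of 11450 tested genes were called higher and 271 lower.

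At 24 h KD cells held 3 genes above their untreated level (Cyp51, Insig1 and Fdft1), where 28.6% of tested genes were called higher and 43.3% lower (3277 and 4959; 4126 and 4103 with quantile normalization, under which 5 of 7 members were called higher). Cyp51 read 19.7 and 20.4 FPKM untreated and 29.9 and 38.3 at 24 h, with a log2 difference of 0.73 (SE 0.09), or 0.55 without the second KD library. Insig1 read 10.9 and 10.8, then 14.2 and 18.6, a difference of 0.54 that was 0.35 without that library. Fdft1 read 12.1 and 11.8, then 14.7 and 20.1, a difference of 0.49 that was 0.28 without it. These 3 calls held without it, and that of Fdft1 was lost with only the groups compared in the fit. In the test of the responses at 24 h, Cyp51 (0.62, SE 0.13) and Sqle (0.36, SE 0.07) were called higher in KD cells, with limma adjusted p of 0.0369 and 0.0334, where 2.73% of tested genes were called higher and 1.98% lower (313 and 227; 246 and 267 with quantile normalization). With each library left out in turn, this difference stayed above 0 for all 7 genes. It ran from 0.44 to 0.79 for Cyp51 and from 0.29 to 0.43 for Sqle. Which genes were called depended on the library left out, as did the number called over all tested genes. In most of these fits neither Cyp51 nor Sqle was called.

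The other enzymes of the route were read next, 13 genes in all. At 8 h, 8 of the 13 were called higher and 2 lower in parental cells, and 7 higher and 3 lower in both C and KD cells. Over all tested genes 22.4% were called higher and 32.1% lower in parental, 19.4% and 44.9% in C, and 23.0% and 44.8% in KD cells. At 24 h 10 were called lower and 1 higher in parental cells, 9 lower and 2 higher in C cells, and 3 lower and 4 higher in KD cells. The shares of all tested genes called lower and higher then were 37.1% and 33.4%, 45.1% and 25.5%, and 43.3% and 28.6%, in that order. Mvd, which makes the first isoprenoid unit, went from 23.9 and 22.6 FPKM to 30.4 and 31.4 and then to 16.0 and 14.9 in parental cells. Acat2, which condenses acetyl groups at the entry, fell from 41.5 and 40.7 to 24.4 and 25.1 by 24 h, and Pmvk, a mevalonate kinase step, from 32.5 and 30.2 to 20.8 and 20.0. Mvk, the enzyme before it, was not called at 8 h in parental, C or KD cells, with log2 differences of -0.01, 0.03 and 0.11. Against untreated C cells, untreated KD cells had Mvd at 10.8 and 10.8 against 14.6 and 14.1, called lower by limma at -0.38.

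**Figure D3:**
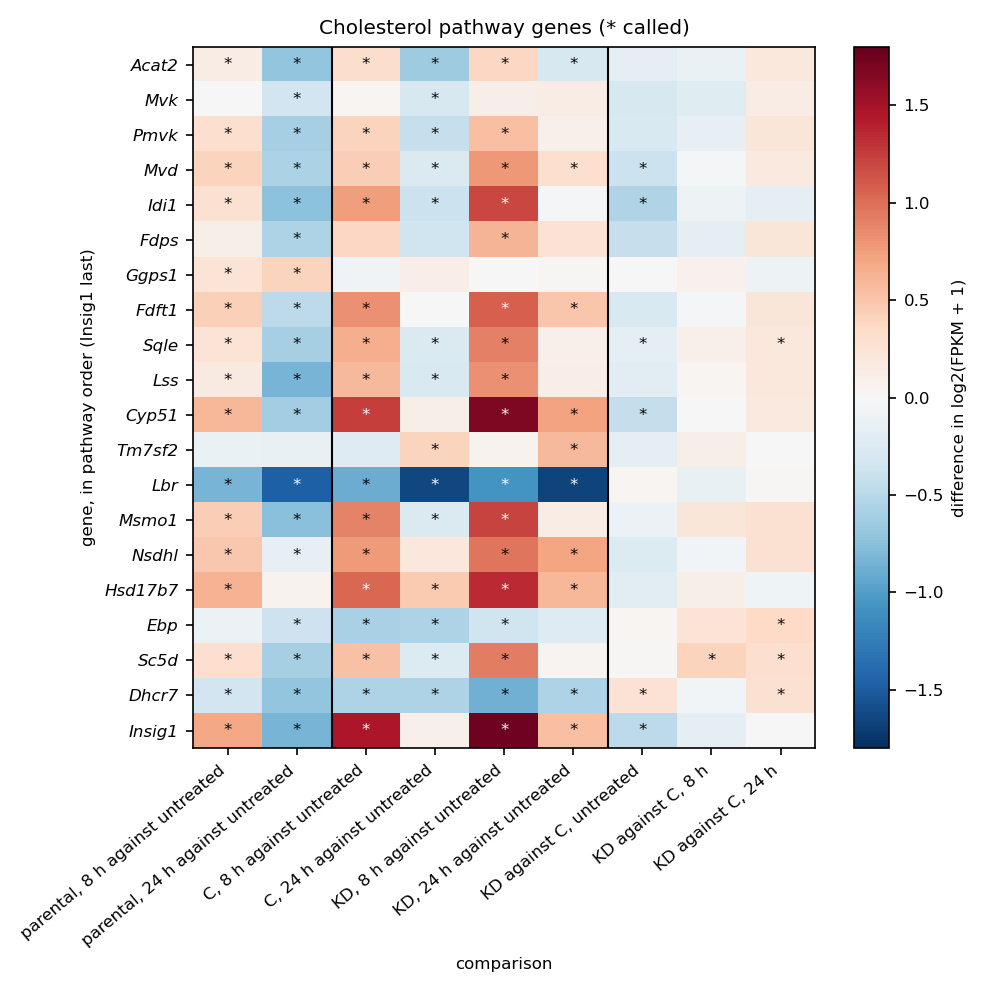
Differences in log2(FPKM + 1) (colour, red for higher and blue for lower) for 19 enzymes of the route and Insig1 (rows, in pathway order) in 9 comparisons (columns), with asterisks for called differences. Most rows are red at 8 h and blue at 24 h in parental cells, while Lbr, Ebp and Dhcr7 are blue in all 6 time comparisons.

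The late sterol steps divided. Sc5d, a desaturase, rose in parental cells from 36.3 and 35.6 FPKM to 46.0 and 43.2 at 8 h and fell to 24.0 and 22.9. Dhcr7, the last reductase before cholesterol, fell instead, from 18.9 and 20.0 to 13.9 and 16.3 and then to 11.9 and 11.1. Lbr, a reductase that is also the lamin B receptor of the inner nuclear membrane, fell furthest, from 29.0 and 29.1 to 15.2 and 16.5 and then to 10.5 and 9.21, and was called lower at 8 h and 24 h in parental, C and KD cells. Between KD and C cells Lbr was not called at any time, with log2 differences of 0.04 untreated, -0.14 at 8 h and 0.02 at 24 h. Sc5d was higher in KD cells at 8 h, at 45.9 and 46.6 against 34.3 and 35.2 FPKM, a difference of 0.40 that was called, as was that of 0.30 at 24 h. Dhcr7 was higher in untreated KD cells, at 18.5 and 18.0 against 15.6 and 14.4, called at 0.27. Of the 13 other enzymes, 1 was called higher and 1 lower in untreated KD cells, 1 higher and none lower at 8 h and 3 higher at 24 h. Over all tested genes 10.6% were called higher and 9.09% lower in untreated KD cells, 19.3% and 16.5% at 8 h, and 16.8% and 11.5% at 24 h.

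The regulators did not share the rise of the enzymes at 8 h, and several fell with them at 24 h. Srebf2, which encodes the main activator of the route, read 90.9 and 92.7 FPKM in untreated parental cells, 89.3 and 94.1 at 8 h and 76.2 and 76.6 at 24 h, with no call at 8 h in parental, C or KD cells. Its KD against C differences were -0.05 untreated, -0.02 at 8 h and 0.11 at 24 h, none of them called. Srebf1, which encodes the related factor of fatty acid genes, fell from 38.4 and 36.4 to 28.0 and 28.4 and then to 20.8 and 21.1. Insig2, the second retention protein, fell while Insig1 rose, from 23.2 and 23.8 to 17.3 and 17.1 at 8 h, and it was called higher in KD than C cells at 8 h (0.26) and 24 h (0.30). Mbtps1 and Mbtps2, the proteases that cut SREBPs, were at 38.9 and 41.0 and at 9.90 and 10.5 in untreated parental cells, and only Mbtps2 was called at 8 h there, at -0.26. Of the 6 regulators other than Insig1, none was called higher at 8 h in parental, C or KD cells, and at 24 h 4 were called lower and 2 higher in both parental and C cells. Shares called higher over all tested genes at 8 h were 22.4%, 19.4% and 23.0%. At 24 h the shares called lower and higher were 37.1% and 33.4% in parental and 45.1% and 25.5% in C cells.

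Uptake and efflux genes gave mixed directions. Of the fatty acid genes, 5 of 9 were called lower in KD than C cells at 8 h, against 16.5% of tested genes. Of 8 uptake and transport genes tested, 2 were called higher and 2 lower at 8 h in parental cells, and 4 higher and 2 lower at 24 h. Over all tested genes the shares were 22.4% higher and 32.1% lower at 8 h, and 33.4% and 37.1% at 24 h. Scarb1, a receptor for high density lipoprotein, fell from 17.0 and 16.6 FPKM to 13.3 and 14.1 and then rose to 24.4 and 23.2, the reverse of the cholesterol enzymes. Lipa, the lysosomal lipase that frees imported cholesterol, was higher in KD than in C cells at 8 h, at 71.1 and 68.9 against 54.0 and 51.4, and at 24 h, at 82.3 and 83.6 against 59.0 and 59.6, with log2 differences of 0.40 and 0.48 that were called. Stard4, a sterol carrier, was lower in untreated KD cells, at 19.0 and 19.4 against 23.2 and 23.4, called at -0.27, and Vldlr, a lipoprotein receptor, was not called between KD and C cells at any time.

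Of the efflux, receptor and esterification genes 3 of 7 were tested. Nr1h3, an oxysterol receptor, fell from 9.92 and 9.91 to 4.54 and 4.34 by 24 h in parental cells, its relative Nr1h2 rose from 25.5 and 25.4 to 33.0 and 32.6, and Soat1, which esterifies cholesterol, was higher in KD than C cells at 8 h, at 20.0 and 19.9 against 14.8 and 14.9. Of 9 fatty acid targets tested, 1 was called higher and 3 lower at 8 h in parental cells, and 2 were called lower in untreated KD cells, Elovl6 at 4.96 and 4.98 against 7.88 and 8.92 and Acly at 61.1 and 60.6 against 68.5 and 67.4. Over all tested genes 22.4% were called higher and 32.1% lower in the first of these comparisons, and 9.09% lower in the second. Scd1, a desaturase of fatty acids, fell from 36.4 and 36.0 to 17.1 and 17.6 by 24 h in parental cells, and Acaca, which makes malonyl-CoA, was called lower in KD cells at 8 h, at 7.86 and 7.13 against 10.1 and 10.1. In that comparison Elovl6 and Acaca were among the 5 called lower and none was called higher, with a median log2 difference of -0.51 beside 0.01 over all tested genes. The median of the 9 targets was -0.30 in untreated KD against C cells. In the test of the responses at 8 h, 0 of the 9 were called, at a median of -0.08.

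The 7 genes varied together across libraries. Over the 6 parental libraries pairwise Pearson's r of log2 values ran from 0.915 to 0.999, and over the 12 shRNA libraries from 0.817 to 0.992, where libraries share groups and table. Every tested gene was then ranked by the lower of its correlations with the mean scaled profile of the 7 genes in the 2 tables, 10837 genes in all. The first 2 were enzymes of the same route, Mvd (0.985) and Msmo1 (0.969), which takes further methyl groups off the sterol, and Pmvk (0.942) was also among the first 10. Of the other genes there, Serpinb5 (0.940), which encodes the serpin maspin, went from 19.1 and 19.4 FPKM to 38.4 and 35.5 at 8 h and 7.26 and 7.77 at 24 h in parental cells. Lmna (0.936), which encodes lamins A and C, went from 359.5 and 353.7 to 493.3 and 484.0 and then to 290.3 and 282.6. S100a8 (0.936), Cstb (0.933), Zbtb32 (0.931) and Ccdc109b (0.926) complete the genes named among the first 10. S100a8 and Zbtb32 are low, at or below 7.78 and 3.81 FPKM in every library. With 3 time points behind each profile such values are a description.

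Chromatin at the starts of the genes was read from the peak lists, which hold 1 library per time point and no reads, so nothing was tested between times. Of the 7 placed genes, 7 had an ATAC peak less than 500 bp from their start at each time, against 56.3% of 10613 placed genes untreated, 46.1% at 8 h and 84.0% at 24 h. In untreated cells the peaks of Idi1 and Lss scored highest, with MACS scores of 190.9 and 175.1, above 92.1% and 88.9% of their list, and that of Cyp51 lowest, at 68.8, above 27.3%. Each ATAC list was called on its own scale, so scores are not set against each other across times. The 300 promoter bases of Idi1, Lss, Cyp51 and Insig1 that RefSeq gives lay wholly inside an ATAC peak at every time.

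Lamin B1 peaks were fewer. In untreated cells 2 of 7 starts, those of Sqle and Insig1, had a lamin B1 peak within 500 bp, against 27.0% of placed genes. At 8 h and 24 h there were 3 of 7 (Sqle, Cyp51 and Insig1), against 46.5% and 37.4%, so the share of these genes was close to that of all genes at each time. The peak of Cyp51 at 8 h, at chr5:4103778-4105130 (mm9), covered the start, overlapped an exon and scored above 65.4% of its list, and its 24 h peak began 175 bp inside the gene. The 8 h peak of Insig1, at chr5:28397249-28398282, spanned the promoter sequence printed earlier, and that of Sqle lay at chr15:59145867-59147179. Idi1, Fdps, Fdft1 and Lss had no lamin B1 peak at the start in any list. Of the 4 genes called lower in untreated KD cells, Sqle and Insig1 had a lamin B1 peak in untreated cells, and Idi1 and Cyp51 had none. When only peaks at or above the median score of their own list were kept, lamin B1 peaks stood at 0, 3 and 1 of the 7 starts. The shares of all placed genes were then 15.9% untreated, 29.6% at 8 h and 22.2% at 24 h.

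**Figure D4:**
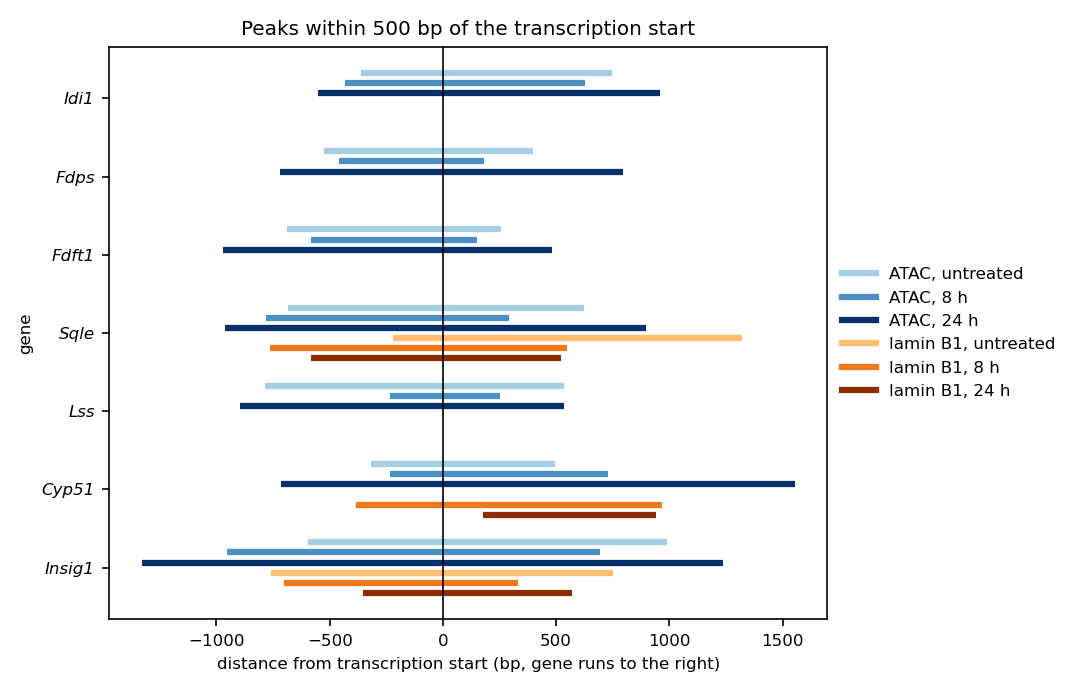
Peaks within 500 bp of the transcription start of 7 cholesterol genes (rows), drawn by distance from the start in bp (horizontal axis, the gene running to the right), for ATAC (blue) and lamin B1 (orange to brown) at 3 times. ATAC peaks span every start at each time, and lamin B1 peaks occur at Sqle and Insig1 at each time and at Cyp51 at 8 h and 24 h.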

How the data were processed

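RNA-seq of NMuMG cells was deposited as FPKM per gene and library, in tables without a header line. The 6 parental and 12 shRNA columns were therefore assigned in the order that each table's own title lists them, which every group in the report rests on. The parental title gives times but no replicate numbers, so first and second there only name columns. The submitters' processing notes name TopHat, Cufflinks and Bowtie with build mm9; versions, strand setting, and the handling of reads shared with gene copies are not given in the sources used here. The deposited peak lists give mm9 positions and a MACS score per peak, 1 library per time point. All columns were used. Hi-C data were not analysed here, and some genes are neither reported nor counted among the pathway enzymes here.

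FPKM values were tested as log2(FPKM + 1) in R 4.3.3 with the limma package, version 3.58.1 (a linear model with moderated, intensity-trended variances), each table in a single fit of its libraries, for genes of at least 1 FPKM in at least 2 libraries. Calls are Benjamini-Hochberg adjusted p under 0.05 over all genes of the table, in 12 comparisons. Log2 differences understate changes of low genes. Ratios are of mean FPKM. The fit was tested on simulated data. Genes were placed with GENCODE M1 (Python 3.11.15, pandas 2.3.3), and peaks were assigned by an overlap of at least 1 bp with the 500 bp on each side of the start. Promoters are from RefSeq GRCm38.p6, and mm9 positions come from an exact match on mm9.

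Members and gene lists were chosen with earlier results of these data known. Named genes are the members, up to 4 genes of each pathway list called in most comparisons (ties by mean FPKM) plus Lbr, Srebf1 and Srebf2, Lmnb1, the marker lists, and the genes ranked most alike. Msmo1, named among the latter, is also in the sterol list.

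Alternatives were a pseudocount of 0.1, no filter, quantile normalization, only the groups compared, robust eBayes, each library left out, a replicate block, peaks at or above their list's median score, and 2500 bp around the start.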

Additional observations from a re-analysis of the deposited data

Results flagged for a closer look

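The responses of KD and C cells to TGF-β differed, by the limma test of the difference itself, for 3 of the cholesterol genes and for several other genes named in the report. At 8 h the KD response exceeded the C response by 0.45 for Idi1 on the log2 scale. Of all tested genes 2.45% were called higher and 1.61% lower in that test, and 2.73% and 1.98% in that at 24 h. Other genes that differed at 8 h were Sc5d (0.39), Lipa (0.48) and Soat1 (0.62), each with the larger rise in KD cells, and Scarb1 (-0.50), which fell further in KD cells. At 24 h the difference was 0.62 for Cyp51 and 0.36 for Sqle among the cholesterol genes. It was 0.56 for Mvd, 0.29 for Sc5d, 0.38 for Stard4 and 0.55 for Lipa. Untreated libraries enter every one of these differences, and for Idi1, Cyp51, Sqle, Mvd and Stard4 those of KD cells lay below those of C cells. The calls of Idi1, Cyp51 and Sqle were each lost when some single libraries were left out. No group holds enough libraries to test whether 1 stands apart.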

How the results depend on the processing

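Among the counts of cholesterol genes called, those of the parental comparisons and of both 8 h responses stayed within 1.5 times their value under each alternative tried. With quantile normalization the count fell from 1 to 0 for KD against C at 24 h and for the difference in response at 8 h, from 2 to 1 for that at 24 h, and rose from 3 to 5 for KD cells at 24 h against untreated. With only the groups compared in the fit it rose from 0 to 2 for KD against C at 8 h and from 1 to 6 for the difference in response at 8 h, and fell to 0 for KD against C at 24 h and for the difference at 24 h. Without the filter the differences in response gave 0 at 8 h and 1 at 24 h. A replicate block could be fitted to the shRNA table alone, where the numbers did not pair the samples in most groups. Of 15 pairs of groups, 2 had deviations from the group means that correlated over 0.1 (range -0.14 to 0.37). These were C with KD cells at 24 h (0.37) and untreated with 24 h KD cells (0.18). With the replicate block the difference in response at 8 h gave 0 in place of 1, and no other count moved by over 1.5 times. The cause of these moves was not tested.

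Leaving out each library in turn gave 5 to 7 genes for parental cells at 8 h, 7 in the other parental comparisons, 1 to 7 for untreated KD against C cells, 0 to 2 at 8 h and 0 to 7 at 24 h. It gave 6 to 7 for C cells at 8 h, 2 to 5 for C cells at 24 h, 7 for KD cells at 8 h, 3 to 6 for KD cells at 24 h, and 0 to 7 for each difference in response. Of single genes that changed sign when libraries were left out, values ran from -0.20 to 0.17 for Insig1 and from -0.10 to 0.53 for Fdps in KD against C cells at 24 h. For 24 h against untreated they ran from -0.0067 to 0.0062 for Fdft1 in C cells. In KD cells they ran from -0.10 to 0.0667 for Idi1, from -0.0488 to 0.58 for Fdps and from -0.0576 to 0.30 for Lss. Quantile normalization turned Fdft1 to 0.12 in C cells and Idi1 to 0.0750 in KD cells. With peaks at or above the median score of their list, lamin B1 starts fell from 2 to 0 untreated and from 3 to 1 at 24 h. The shares of all placed genes fell from 27.0% to 15.9% and from 37.4% to 22.2%. Read counts are not given, so what depth limits could not be assessed. The number called over all tested genes also changed with the library left out, so the member counts of those fits cannot be read against the main shares. Having 2 libraries per group limits every call.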
